A study of Mus musculus with 6 samples.

Results

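Troponins and tropomyosins are the calcium switch of the thin filament, and 10 of their genes were listed by name: Tnni1, Tnni2, Tnnt1, Tnnt2, Tnnt3, Tnnc1, Tnnc2, Tpm1, Tpm2 and Tpm3. Members were the rows of the count table whose gene name equals one of these names, which gave 9 genes of the 28510 in the table, each with 1 row. Tnnc1, which encodes the troponin C of slow fibres and heart, had no row and is not analysed here. RNA was sequenced from frozen tibialis anterior, a shin muscle made mostly of fast fibres, of C57BL/6 mice aged 12 months, in 3 KO and 3 WT samples. KO samples were H2A-Z.1-/- and H2A-Z.2-/- with HSA Cre+, so both genes for the histone variant H2A.Z were deleted. WT samples carried flox/flox alleles of both genes and were labelled HSA Cre WT. Which exons the deletion removes is not stated in the labels. HSA stands for the human skeletal actin promoter, which drives Cre in muscle fibres, and whole muscle also holds cells in which it is not active. Replicates are numbered in the labels without a statement that they were separate animals. The p-values therefore cover only the spread among these samples, which may be technical.

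In a sarcomere, tropomyosin lies as a coiled coil along actin and covers the sites that myosin needs. Troponin C binds calcium, troponin I holds the filament off, and troponin T ties the complex to tropomyosin. Slow fibres, fast fibres and heart use different genes for the same subunit. Slow fibres use Tnni1 and Tnnt1, fast fibres use Tnni2, Tnnt3 and Tnnc2, and heart uses Tnni3 and Tnnt2. Developing skeletal muscle also makes Tnni1 and Tnnt2. Tpm1 encodes alpha-tropomyosin of fast fibres and heart, Tpm2 beta-tropomyosin, and Tpm3 the slow tropomyosin. The tropomyosin genes also make shorter isoforms in non-muscle cells through other promoters and splicing, and a count per gene cannot separate these.

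Of the 9 genes, Tnni1, Tnnt1 and Tnnt2 rose in KO muscle, and these are the slow and cardiac troponins. The 250 bases before their annotated start sites are shown because these 3 genes moved together. They come from the RefSeq table of build GRCm38.p6, which is not the mm9 build of the counts, and 7 of the 9 genes have an entry in it. Tnni1 is given at chr1:135799171-135799420 on the plus strand, Tnnt2 at chr1:135836084-135836333 on the plus strand and Tnnt1 at chr7:4515976-4516225 on the minus strand, the first of the listed starts in each case.
Tnni1: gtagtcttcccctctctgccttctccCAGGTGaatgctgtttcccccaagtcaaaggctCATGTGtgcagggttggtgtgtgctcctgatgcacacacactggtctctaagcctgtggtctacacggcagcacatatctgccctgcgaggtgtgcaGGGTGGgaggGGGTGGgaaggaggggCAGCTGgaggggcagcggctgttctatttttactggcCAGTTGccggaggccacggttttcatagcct
Tnnt2: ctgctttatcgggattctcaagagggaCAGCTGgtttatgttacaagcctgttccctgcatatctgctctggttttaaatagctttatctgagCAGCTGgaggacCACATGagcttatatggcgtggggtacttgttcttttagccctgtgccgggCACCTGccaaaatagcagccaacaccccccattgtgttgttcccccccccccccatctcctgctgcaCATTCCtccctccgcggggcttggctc
Tnnt1: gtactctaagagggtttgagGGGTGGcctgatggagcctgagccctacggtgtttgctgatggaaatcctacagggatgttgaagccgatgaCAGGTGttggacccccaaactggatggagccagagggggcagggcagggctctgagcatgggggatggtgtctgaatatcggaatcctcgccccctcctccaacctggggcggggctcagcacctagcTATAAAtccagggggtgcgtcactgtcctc
Capitals mark matches, on either strand, to the E-box CANNTG of basic helix-loop-helix factors, the MCAT element CATTCC, the TATA box TATAAA and the CACCC box CCACCC. None of these matches overlapped another. The Tnni1 window held 4 E-boxes and 2 CACCC boxes, the Tnnt2 window 4 E-boxes and 1 MCAT element, and the Tnnt1 window 1 E-box, 1 CACCC box and 1 TATA box. Among the 32817 windows of this length in the table, 66.2% held an E-box, 12.6% an MCAT element, 12.4% a TATA box and 28.1% a CACCC box. The MEF2 motif was also searched, occurs in 3.2% of all windows and is not in the letters of these 3. At a second listed start, Tnni1 had 2 E-boxes and 2 CACCC boxes, and Tnnt2 had 1 E-box and no MCAT element. Annotated exons covered 19 bases of the printed Tnni1 window, 29 of the Tnnt1 window and 0 of the Tnnt2 window. They covered 95 bases of the second Tnni1 window and all 250 of the second Tnnt2 window, so these are partly or wholly transcribed sequence. Windows of genes that fell held such matches too, with 1 E-box and 1 MCAT element for Tpm1 and 1 E-box and 1 CACCC box for Tpm2. Annotated exons covered 193 bases of the Tpm1 window and 106 of the Tpm2 window. A match describes letters and is not evidence of binding.

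Libraries held 62318774 to 102919416 counts in KO and 35456883 to 88477775 in WT. The 9 genes took 2.31% to 3.06% of all counts in KO libraries and 3.89% to 4.32% in WT libraries. Mitochondrial genes took 32.1% of the counts in KO replicate 2, against 19.9% to 25.5% in the other 5 libraries. Both targeted genes fell by the edgeR test, H2afz with a log2 fold change of -1.85 (SE 0.16) and H2afv with -2.17 (SE 0.16). Skeletal muscle markers summed to 7187433 to 9042430 normalised counts per kb in KO and 8701242 to 10652655 in WT. By edgeR 0 of these 8 markers passed, 1 was lower at an unadjusted p under 0.05, DESeq2 called 3 lower and limma-voom 0, and edgeR called 1 lower without KO replicate 3. Of 8 heart markers 6 could be tested, of which 1 rose, 0 fell and 5 did not pass, and DESeq2 and limma-voom also called 1 risen and 0 fallen, with 0 lower at an unadjusted p under 0.05 in edgeR. Over all genes tested 13.5% rose by edgeR. The heart marker list summed to 196 to 239 normalised counts per kb in KO and 97.9 to 141 in WT. The risen marker was Nppb, with 77, 44 and 60 counts in KO libraries, against 3, 0 and 0 in WT libraries (edgeR adjusted p = 0.00042). By edgeR, 2 heart markers rose without KO replicate 1 and without any one of the WT replicates. The count was also 2 with no expression filter, and it was 0 with a stricter one. Of the untested pair, Myl7 had at most 3 counts in every library, and Nppa had 8 to 21 counts per KO library and was at 0 in WT.

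Levels are given as normalised counts per kb, the deposited values that the authors scaled between libraries and divided by gene length. A gene is said to have risen or fallen when its Benjamini-Hochberg adjusted p, from edgeR's quasi-likelihood test over all 16628 genes tested, was below 0.05. All 9 genes passed the filter on low counts, and none had fewer than 30 counts in any library. By this test 3 of the 9 rose, 3 fell and 3 did not pass, against 13.5% of all genes tested that rose and 12.4% that fell. The median log2 fold change was -0.62 over the 9 genes and 0.01 over all genes. KO and WT libraries did not overlap for 8 of the 9, with KO above for 3 and below for 5, against 21.4% of all genes with KO above and 21.5% with KO below. Scaling by library size alone moved the median of all genes to 0.22, and the share of rises among all calls from 52.2% to 76.8%, with 3418 rises and 1030 falls. The sign of the log2 fold change of each of the 9 genes was the same under that scaling as under TMM.

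**Figure D1:**
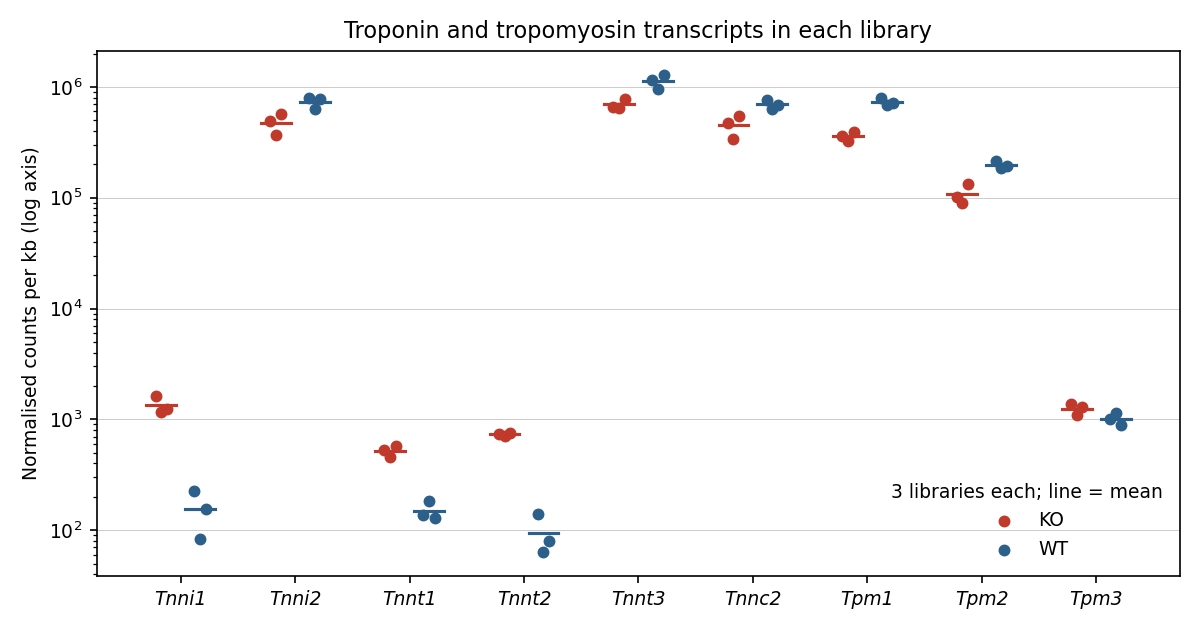
Normalised counts per kb (log axis) of the 9 genes in 3 KO and 3 WT libraries, with each point 1 library and each line a group mean. Fast troponins, Tpm1 and Tpm2 lie at 89093 and above in every library, while Tnni1, Tnnt1, Tnnt2 and Tpm3 lie at 1630 and below.

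Among the inhibitory subunits, the slow gene rose and the fast gene was still by far the more abundant. Tnni1, the slow skeletal troponin I, stood at 1630, 1169.7 and 1245 normalised counts per kb in KO libraries, against 224, 83.1 and 155 in WT libraries. The lowest KO library was above the highest WT library, and WT replicate 2, the library with the fewest counts in all, was the lowest. Tnni1 rose 8.47-fold by edgeR (log2 fold change 3.08, SE 0.29, adjusted p = 7.75e-05), on 787 to 1692 counts per KO library and 30 to 188 per WT library. Its rank by level among the 28510 genes was 2618 to 3274 in KO libraries and 8404 to 10968 in WT libraries. The call was kept with any single library left out, at log2 fold changes of 2.82 to 3.45.

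Tnni2, the fast troponin I, stood at 495709.8, 367923 and 566658 normalised counts per kb in KO libraries, against 790640.2, 634817 and 782683 in WT libraries. All 3 KO libraries were below all 3 WT libraries, and KO replicate 2 was the lowest. The log2 fold change of -0.62 (SE 0.23) did not pass in edgeR (adjusted p = 0.0687). It did pass in DESeq2 (adjusted p = 0.00534) and with the replicate number as a block (adjusted p = 0.0449), and in the authors' deposited table its adjusted p is 0.00752. Even so, Tnni2 stood 304 to 455 times as high as Tnni1 in KO libraries, against 3531 to 7641 times as high in WT libraries.

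Tnnt2, the cardiac troponin T, had the most even level of any of the 9 genes across the KO libraries. It stood at 738, 704 and 749 normalised counts per kb in KO libraries, a coefficient of variation of 3.21%, against 141, 63.8 and 79.5 in WT libraries, where that coefficient was 43.2%. The groups were far apart, with the lowest KO library above the highest WT library. Tnnt2 rose 7.50-fold by edgeR (log2 fold change 2.91, SE 0.26, adjusted p = 5.76e-05), on 699 to 1227 counts per KO library and 34 to 175 per WT library. With single libraries left out the log2 fold change was 2.71 to 3.33 and the call was kept each time.

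Tnnt1, the slow troponin T, stood at 528, 458 and 576 normalised counts per kb in KO libraries, against 138, 184 and 128 in WT libraries. Again no KO library overlapped a WT library, although the gap was narrower than for Tnni1 and Tnnt2. Tnnt1 rose 3.52-fold by edgeR (log2 fold change 1.81, SE 0.21, adjusted p = 0.000235), on 306 to 635 counts per KO library and 66 to 115 per WT library. Leaving out single libraries gave log2 fold changes of 1.71 to 1.96, each called. In level per length Tnnt2 stood 1.30 to 1.54 times as high as Tnnt1 in KO libraries and 0.347 to 1.02 times as high in WT libraries.

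Tnnt3, the fast troponin T, was the most abundant of the 9 genes, ranking 14 to 18 among all genes by level per length in KO libraries and 12 in each WT library. It stood at 659749.7, 651038 and 776474 normalised counts per kb in KO libraries, against 1157975, 955381 and 1290643 in WT libraries. Every KO library was below every WT library. Tnnt3 fell 1.63-fold by edgeR (log2 fold change -0.70, SE 0.22, adjusted p = 0.0402). The call was lost without KO replicate 1 (adjusted p = 0.139), KO replicate 2 (0.0664), WT replicate 1 (0.123) or WT replicate 3 (0.111), and with scaling by library size alone (0.0819), all by edgeR. Prr33 overlaps Tnnt3 on the other strand in the reference annotation, and reads of both cannot be told apart because no source used here gives the strand setting of the counting. Prr33 held 3434 to 7438 counts per KO library and 2657 to 6910 per WT library, far fewer than the 407177 or more of Tnnt3.

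Tnnc2, the fast troponin C that binds the calcium released at each twitch, is the one troponin C gene measured. It stood at 472824, 341298 and 542785 normalised counts per kb in KO libraries, against 764374, 628435 and 691038 in WT libraries. The groups did not overlap, with KO replicate 2 again the lowest. The log2 fold change of -0.62 (SE 0.22) did not pass in edgeR (adjusted p = 0.0655). It passed in DESeq2 (0.00647), in limma-voom (0.0476), without an expression filter (0.0476), with the replicate number as a block (0.0440), and once KO replicate 3 was left out (0.0451), and the authors' deposited table gives an adjusted p of 0.00917. Ube2c, a cell cycle ubiquitin enzyme gene, overlaps Tnnc2 on the other strand, at 338 to 1082 counts per KO library and 718 to 951 per WT library.

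**Figure D2:**
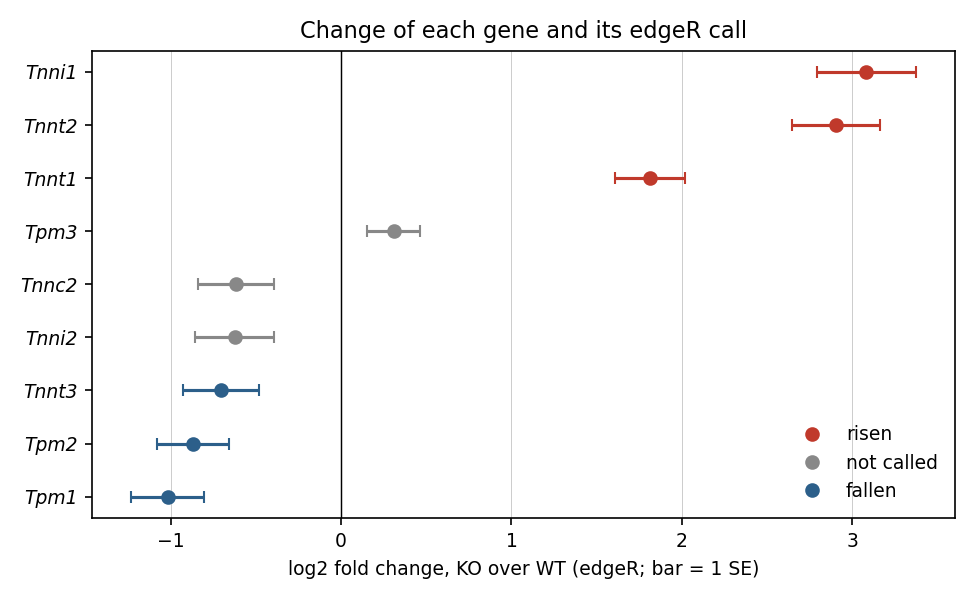
log2 fold change of KO over WT by edgeR for each of the 9 genes (point) with 1 SE (bar), coloured by whether the gene rose, fell or did not pass. The 3 slow and cardiac troponins lie between 1.81 and 3.08, Tpm3 at 0.31, and the 5 fast or alpha and beta genes between -1.02 and -0.62.

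Of the tropomyosins, the alpha and beta genes fell and the slow gene did not pass. Tpm1 stood at 363246, 323168 and 393908 normalised counts per kb in KO libraries, against 785958, 684559 and 719353 in WT libraries. The highest KO library was well below the lowest WT library. Tpm1 fell 2.02-fold by edgeR (log2 fold change -1.02, SE 0.21, adjusted p = 0.00636), and the call was kept with any single library left out (adjusted p 0.0101 to 0.0329 by edgeR). Tpm2 stood at 101184, 89093 and 134257 normalised counts per kb in KO libraries, against 214809.7, 185433 and 193907 in WT libraries. It also showed no overlap, and KO replicate 3 was the highest of its group for both genes. Tpm2 fell 1.83-fold by edgeR (log2 fold change -0.87, SE 0.21, adjusted p = 0.0129), and the call was lost without KO replicate 1 (adjusted p = 0.0576 by edgeR) or WT replicate 1 (adjusted p = 0.0559 by edgeR).

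Tpm3 stood at 1366, 1090.0 and 1301 normalised counts per kb in KO libraries, against 999.5, 1148 and 895 in WT libraries. It was the one gene of the 9 whose groups overlapped, because WT replicate 2 was above KO replicate 2. The log2 fold change of 0.31 (SE 0.16) did not pass in edgeR (adjusted p = 0.171) or under any alternative run. Tpm4, a tropomyosin gene of non-muscle cells that is outside the 9, stood at 1312 ± 198 in KO and 999 ± 111 in WT (SD, n = 3 each) and was not called either, at a log2 fold change of 0.39 with an SE of 0.15 (edgeR adjusted p = 0.0824). It was called with scaling by library size alone (adjusted p = 0.0195 by edgeR) and with a stricter expression filter (adjusted p = 0.0462 by edgeR).

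Markers of cells that use the tropomyosin genes outside fibres are given here because the muscle was taken whole. Smooth muscle markers summed to 6223 to 8445 normalised counts per kb in KO and 7616 to 10667 in WT, with 6 of 8 log2 fold changes negative, a median of -0.47 and 1 gene fallen by edgeR, Cnn1. At an unadjusted p under 0.05, 4 were lower in edgeR. The count of falls was 3 with DESeq2 or no expression filter, 2 with the replicate number as a block, and 0 with limma-voom, the stricter filter, library size alone, or any single library other than WT replicate 1 left out. Macrophage markers rose in 7 of 9 cases and summed to 13027 to 20416 in KO and 3824 to 8947 in WT. Fibroblast markers rose in 5 of 8 cases and summed to 46314 to 88094 in KO and 33130 to 49910 in WT, with 1 risen when WT replicate 3 was left out, 2 for KO replicate 2, and 3 for KO replicate 1 or WT replicate 2. Endothelial markers fell in 1 of 8 cases, Vwf, and summed to 4902 to 5971 in KO and 6625 to 7250.0 in WT. Of their log2 fold changes 7 of 8 were negative, and 3 were lower at an unadjusted p under 0.05 in edgeR. For comparison with these 4 lists, 13.5% of all genes tested rose and 12.4% fell by edgeR. Fewer cells of a type and less RNA per cell cannot be told apart in whole muscle, and the part of these cells in the tropomyosin values was not tested.

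The share of each isoform was taken within its family, as its level per length over the family's sum in the same library, so that scaling between libraries cancels out. Slow troponin I (Tnni1) made up 0.328%, 0.317% and 0.219% of troponin I transcripts in KO libraries, against 0.0283%, 0.0131% and 0.0198% in WT libraries. The share was 14.1 times as high in KO on average and still well under 1% in each library. Fast troponin I (Tnni2) held the rest, 99.7% ± 0.0598 in KO and 99.98% ± 0.00763 in WT (SD, n = 3 each).

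Within troponin T, the slow gene Tnnt1 made up 0.0798%, 0.0702% and 0.0741% in KO libraries, against 0.0119%, 0.0193% and 0.00994% in WT libraries. The cardiac gene Tnnt2 made up 0.112%, 0.108% and 0.0963% in KO libraries, against 0.0122%, 0.00667% and 0.00616% in WT libraries. Both shares were higher in every KO library than in any WT library, by 5.45 times for Tnnt1 and 12.6 times for Tnnt2 on average. The fast gene Tnnt3 held 99.8% ± 0.0107 in KO and 99.98% ± 0.00523 in WT (SD, n = 3 each). No share can be given for troponin C, since Tnnc2 alone was measured.

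Tropomyosin kept nearly the same make-up while its sum was lower. Tpm1 made up 78.0%, 78.2% and 74.4% of tropomyosin transcripts in KO libraries, against 78.5%, 78.6% and 78.7% in WT libraries. Tpm2 made up 21.7%, 21.6% and 25.4% in KO libraries, against 21.4%, 21.3% and 21.2% in WT libraries. The groups did not overlap for either, but most of the gap came from KO replicate 3: the difference in mean share of Tpm1 was -1.72 percentage points with it and -0.493 without it, and that of Tpm2 was 1.56 and 0.325. Tpm3 made up 0.293%, 0.264% and 0.246% in KO libraries, against 0.0998%, 0.132% and 0.0979% in WT libraries, 2.44 times as high in KO on average. The level of Tpm3 itself was 1.24-fold higher by edgeR and did not pass, while the tropomyosin sum in KO was 0.505 of that in WT. On raw counts not divided by length the difference in share of Tpm3 was 0.0784 percentage points, against 0.158 per length.

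Each of the 7 shares tested gave p = 0.1 in a two-sided exact permutation test (adjusted p = 0.1 over the 7), which is the smallest p that 3 libraries against 3 allow, so none could pass 0.05.

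**Figure D3:**
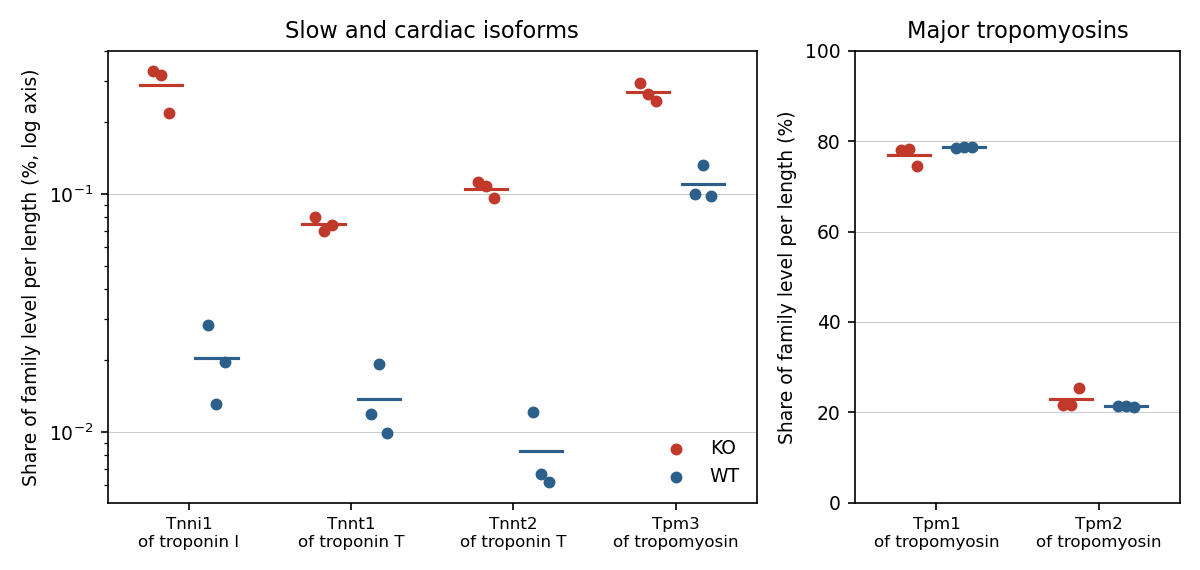
Share of each isoform in its family's summed level per length, in percent, in 3 KO and 3 WT libraries (points, with lines at group means); the left axis is a log axis and the right axis runs from 0 to 100. The slow and cardiac shares lie higher in every KO library but under 1%, and Tpm1 lies between 74.4% and 78.7% throughout.

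Summed by family, the transcripts of every subunit were lower in KO. The troponin I and troponin T sums are almost wholly Tnni2 and Tnnt3, and troponin C is Tnnc2 alone, so these sums repeat the values of single genes. Of these genes, Tnni2 (adjusted p = 0.0687) and Tnnc2 (adjusted p = 0.0655) did not pass in edgeR. Troponin I summed to 478112 ± 100790.2 normalised counts per kb in KO and 736201 ± 87821 in WT, and troponin T to 697004 ± 70108.5 in KO and 1134911 ± 168826 in WT (SD, n = 3 each). Tropomyosin summed to 469537.5 ± 58148 in KO and 929021 ± 66569.7 in WT (SD, n = 3 each). The ratio of KO to WT means was 0.649 for troponin I, 0.614 for troponin T, 0.651 for troponin C and 0.505 for tropomyosin. No KO library reached any WT library in these sums, and each gave p = 0.1 in a two-sided exact permutation test, the smallest possible. Tropomyosin stood at 0.932 to 1.12 times the troponin I sum in KO libraries and 1.17 to 1.37 times in WT libraries, without overlap. Troponin C stood at 0.925 to 0.956 times the troponin I sum in KO, and the WT libraries lay on both sides of that range, from 0.883 upward.

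The troponin I and troponin T genes lie in pairs on the chromosomes, and the reference annotation gives the order of genes around them. Tnni1 and Tnnt2 have Lad1 between them, Tnni2 and Tnnt3 have Lsp1 between them, and Tnnt1 lies next to Tnni3. Both genes of the Tnni1 and Tnnt2 pair rose, while Lad1 had 4 to 18 counts per KO library and 0 to 3 per WT library and was not tested. On its outer sides, Phlda3, next to Tnni1, fell with a log2 fold change of -0.67 (SE 0.21, edgeR adjusted p = 0.0358). Pkp1, a desmosome gene next to Tnnt2, rose on 13 to 25 counts per KO library and 0 to 1 per WT library (adjusted p = 0.00498 by edgeR).

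In the fast pair, Tnnt3 fell and Tnni2 did not pass, and Lsp1 between them, which encodes a leukocyte actin-binding protein, was at log2 0.44 (SE 0.17, adjusted p = 0.0709 by edgeR). Mrpl23, a mitochondrial ribosome gene on the other side of Tnnt3, fell with a log2 fold change of -0.77 (SE 0.17, edgeR adjusted p = 0.00787). Syt8, beyond Tnni2, rose on 15 to 26 counts per KO library and 0 to 6 per WT library (adjusted p = 0.0237 by edgeR). In the third pair Tnnt1 rose, and its partner Tnni3, the cardiac troponin I, had 62, 20 and 29 counts in KO libraries, against 26, 3 and 10 in WT libraries. Those groups overlapped, and edgeR gave Tnni3 a log2 fold change of 1.00 with an SE of 0.51 and an adjusted p of 0.174, which is not a call. Dnaaf3 overlaps Tnni3 on the same strand, so reads of the 2 genes may be shared.

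The other genes of slow and fast fibres give the setting of these changes, in lists chosen with earlier results of these data known. Among 12 other slow fibre genes, 4 rose and 8 did not pass, at a median log2 fold change of 0.50, against 0.01 over all genes tested. Of all genes tested 13.5% rose. Csrp3, a Z-disc protein gene, rose by log2 1.95 (SE 0.29), Myoz2, a calcineurin-binding Z-disc protein gene, by 1.23 (SE 0.18), Casq2, the cardiac and slow calsequestrin gene, by 1.17 (SE 0.23), and Atp2a2, which encodes the calcium pump of slow fibres, by 1.00 (SE 0.13). The myosin of slow fibres, Myh7, usually made together with Tnni1 and Tnnt1, stood at 13.3 normalised counts per kb in KO and 9.91 in WT, a log2 fold change of 0.45 with an SE of 0.35 that missed the threshold in edgeR (adjusted p = 0.385). The slow light chain genes Myl2 and Myl3, named after their values were seen, had log2 fold changes of -0.62 (SE 0.51) and 0.10 (SE 0.36), and neither passed in edgeR.

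Among 12 other fast fibre genes, 3 fell and 9 did not pass, at a median of -0.23. Of all genes tested 12.4% fell. Mybpc2, the fast myosin-binding protein C gene, fell with a log2 fold change of -0.93 (SE 0.22), Myoz1, a fast Z-disc protein gene, with -0.71 (SE 0.20), and Mylk2, the skeletal myosin light chain kinase gene, with -0.70 (SE 0.21). Without KO replicate 1 or WT replicate 1 edgeR called 0 of them, without WT replicate 3 it called 1, and with scaling by library size alone 1. DESeq2 called 5 lower and limma-voom 4. No gene of this list rose in edgeR, DESeq2 or limma-voom or at an unadjusted p under 0.05 in edgeR, and 1 rose without KO replicate 2. The fast myosin genes Myh4 and Myh1 had log2 fold changes of -0.68 (SE 0.25) and -0.02 (SE 0.22), and Myh2, the fast oxidative myosin gene, 0.46 (SE 0.25); none of the 3 passed in edgeR.

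Embryonic and cardiac sarcomere genes held more calls. Of 10 listed, 8 could be tested and 7 of these rose, against 13.5% of all genes tested. This list too was chosen with earlier results of these data known, so its share of rises is a description and not a test. Their median was 2.84 over the 8, and 7 rose with any single library left out. Beside the cardiac Tnnt2, the risen genes included the cardiac actin gene Actc1 at 3.11 (SE 0.38), the perinatal myosin gene Myh8 at 2.99 (SE 0.26), the embryonic myosin gene Myh3 at 2.70 (SE 0.45) and the atrial and embryonic light chain gene Myl4 at 2.27 (SE 0.19). Sln, the gene of sarcolipin, which inhibits the calcium pump, and Ankrd1, a titin-binding stress protein gene, rose by 5.27 (SE 0.30) and 4.65 (SE 0.29). The eighth was Myh6, which encodes a cardiac myosin and was named after its values were seen. Its log2 fold change was -1.32 (SE 0.49), not called in edgeR (adjusted p = 0.0688), with every KO library below every WT library in normalised counts per kb. The untested genes were the cardiac Myl7 and Mybpc3, the latter named after its values were seen. Myl7 had 0 counts in each KO library and 2, 0 and 0 in WT libraries. Mybpc3 had 17, 3 and 8 counts in KO libraries and 4, 0 and 3 in WT libraries. The list held 1 fall with DESeq2, limma-voom, no expression filter, the replicate number as a block, or KO replicate 3 left out. Markers of satellite cells, the resident stem cells, summed to 2561 to 3960.5 normalised counts per kb in KO and 2756 to 3023 in WT. By edgeR 0 of these 8 passed, with 1 at an unadjusted p under 0.05, DESeq2 and limma-voom also called 0, and edgeR called 2 risen without KO replicate 2 and 1 without KO replicate 3.

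**Figure D4:**
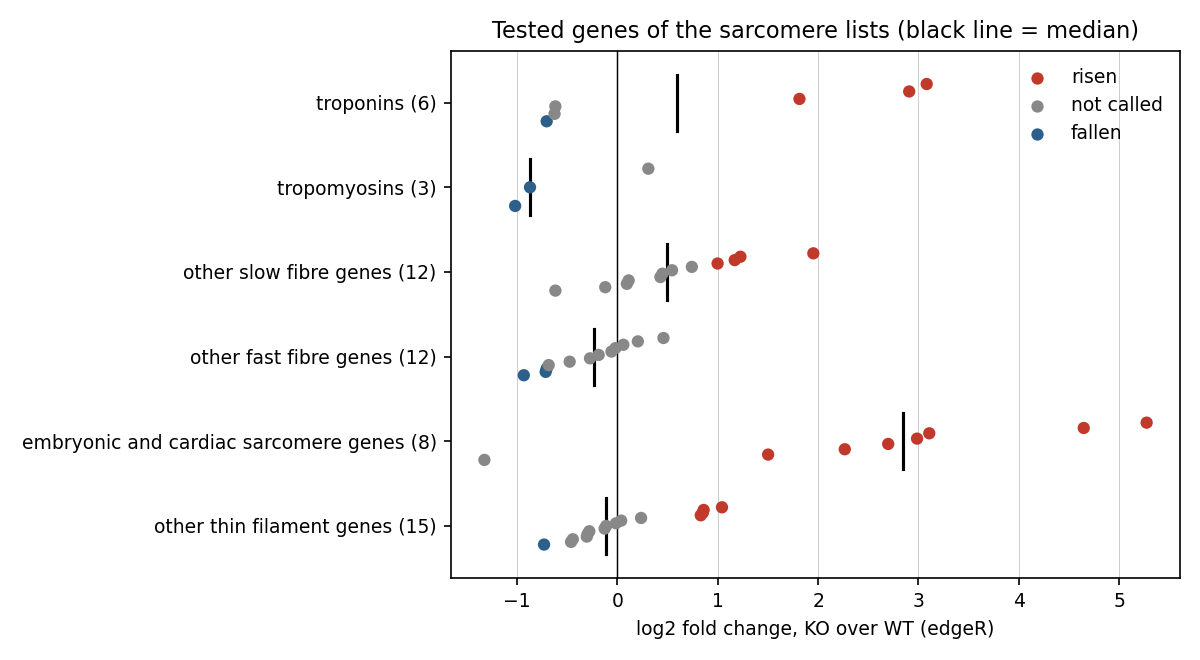
log2 fold change of KO over WT by edgeR for each tested gene (point) of 6 sarcomere lists, with the number tested in brackets, the list median as a black line and points spread vertically for visibility. The median of the embryonic and cardiac list lies furthest to the right (2.84), though its Myh6 lies at -1.32. Other slow and fast fibre genes lie around medians of 0.50 and -0.23.

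Of 15 other thin filament genes, 4 rose, 1 fell and 10 did not pass, at a median of -0.11. The shares over all genes tested were 13.5% risen and 12.4% fallen. Lmod2, an actin filament elongation factor gene, rose by log2 0.85 (SE 0.15), Klhl40, which stabilises thin filament proteins, by 1.04 (SE 0.25), Fhl1 by 0.86 (SE 0.21), and Actn2, an alpha-actinin gene of the Z-disc named after its values were seen, by 0.83 (SE 0.26). Tmod4, which caps the pointed end of actin filaments, fell, at log2 -0.73 (SE 0.17). The list held 0 falls without WT replicate 1 or with library size alone, and 2 with DESeq2 or without KO replicate 2. Actin and nebulin did not pass in edgeR: Acta1, skeletal actin, had a log2 fold change of -0.44 (SE 0.26, adjusted p = 0.245) and Neb, nebulin, -0.46 (SE 0.22, adjusted p = 0.154). Without WT replicate 3, 2 of these genes rose, and 3 rose without any one of KO replicate 1, KO replicate 3, WT replicate 1 or WT replicate 2.

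Of 20 transcription factor genes of fibre type and muscle identity, 4 rose, 1 fell and 15 did not pass, at a median of 0.05. Of all genes tested 13.5% rose and 12.4% fell. Myog, a myogenic regulator, rose by log2 2.68 (SE 0.18). Prox1 and Nfatc1, both known for the slow fibre program, rose by 0.88 (SE 0.28, adjusted p = 0.042 by edgeR) and 0.40 (SE 0.13, adjusted p = 0.0426 by edgeR), and Nfatc2 by 0.50 (SE 0.16, adjusted p = 0.0441 by edgeR). Eya1, a transcriptional cofactor gene of the fast fibre program, named after its values were seen, fell with a log2 fold change of -0.42 (SE 0.14, adjusted p = 0.0499 by edgeR). Without KO replicate 1 or any one WT replicate 0 factors fell by edgeR. The count was also 0 with median-of-ratios size factors, library size alone, no expression filter or a stricter one. It was 0 again with mitochondrial and haemoglobin genes left out. With all libraries 4 were lower at an unadjusted p under 0.05 in edgeR, DESeq2 called 1 lower and limma-voom 0. Risen factors numbered 1 without KO replicate 1, WT replicate 1, WT replicate 2 or WT replicate 3, and 2 in limma-voom. Sox6, a repressor of slow genes named after its values were seen, had a log2 fold change of -0.31 (SE 0.14) and did not pass in edgeR (adjusted p = 0.131).

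The genes whose pattern over the 6 libraries was most like that of each member were found by Pearson's r of log2 CPM among the 7379 genes whose mean log2 CPM reached 3. The libraries fall into 2 groups, so a high r mostly reflects the difference between them, and r is given as a description. Tnni1 was closest to Angptl2 (r 0.997), Hip1 (0.997) and Abcg2 (0.997), Tnnt2 to Hip1 (0.997), Tbc1d4 (0.996) and Abcg2 (0.995), and Tnnt1 to Spock2 (0.998), Prrc2c (0.997) and Med13l (0.996). Tnni2 was closest to Alyref (0.999), the muscle creatine kinase gene Ckm (0.999) and Mrpl2 (0.998), Tnnt3 to Ddx59, Zdhhc3 and Ethe1 (0.998, 0.997 and 0.997), and Tnnc2 to Zfp787, Psmc3 and Thap11 (0.999, 0.998 and 0.997). Tpm1 was closest to Ebna1bp2, Flot1 and Slc25a15 (0.999, 0.998 and 0.997) and Tpm2 to Eif2b5, Krba1 and Cd2bp2 (0.998, 0.997 and 0.995). The size of a change does not enter r. Hip1 had an edgeR log2 fold change of 0.58, against 3.08 for Tnni1 and 2.91 for Tnnt2. Flot1 was nearer in size to its member, with -1.19 against -1.02 for Tpm1. Genes with r above 0.99 numbered 2 for Tpm3 and 6 to 39 for the other members.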

How the data were processed

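Stranded total RNA libraries with ribosomal RNA removed were made from tibialis anterior of 3 KO and 3 WT samples, per the labels' protocols. Tools named in the submitters' processing notes are bcl2fastq 2.17.1.14, TopHat2 2.0.14, Bowtie, HTSeq 0.6.1 and mm9, without roles; the annotation and strand setting were not given in the sources used here. Raw read counts and a signal were deposited, the signal being counts that the authors normalized and divided by length, per the file headers. The authors' log2 fold change and p-value columns were used only where named.

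Counts were tested as deposited with edgeR 4.0.16 in R 4.3.3 (TMM, filterByExpr with min.count 10 and min.total.count 15, no covariate, quasi-likelihood test). SE is the log2 fold change divided by the square root of F. Shares and sums used the signal and two-sided exact permutation tests. Alternatives were other size factors and filters, DESeq2 1.42.0, limma-voom (limma 3.58.1), robust dispersion, a replicate block, single libraries left out, and removal of mitochondrial and haemoglobin genes. The fit was tested on simulated data. A first acceptance rule, on recovery over all changed genes, was not met, and after that result was seen the rule was limited to changed genes with higher counts. Recovery over all changed genes was 58% at a log2 change of 1 and 85% at 2. It was 100% at a log2 change of 2 for genes with a mean count of at least 100. Named genes were the members, Tnni3, Tpm4, up to 4 genes of lowest p per list, preset myosin and actin genes, neighbours and the 3 most similar genes per member. Members and lists were chosen with earlier results of these data known. Figures were drawn with matplotlib 3.10.9.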

Additional observations from a re-analysis of the deposited data

How the results depend on the processing

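The 3 rises among the members and their signs held under every alternative run, and none of the 9 log2 fold changes changed sign. Falls among the members numbered 3, but 5 with DESeq2 and 5 with the replicate number as a block, and 1 to 4 with 1 library left out (1 without KO replicate 1 or WT replicate 1). Over all genes, 2249 rose and 2062 fell. With scaling by library size alone 3418 rose and 1030 fell, and with 1 library left out 1391 to 2321 rose and 1168 to 2189 fell. The block gave 2457 rises and 2236 falls, and blocked pairs gave the same mean differences in shares and sums, at p = 0.25 in an exact sign-flip test, the smallest 3 pairs allow. Replicate numbers were not taken as pairs in the main fit. Same-numbered libraries had correlations of deviations from group means of 0.147, 0.143 and 0.025 for replicates 1, 2 and 3. Differently numbered libraries had -0.155 to 0.0412, so the pairs numbered 1 and 2 were the highest. KO replicate 3 correlated best with WT replicate 1. Whether same-numbered libraries shared a batch was not tested. Of the members' calls the block changed those of Tnni2 and Tnnc2 and no other. The differences in shares and family sums kept their direction under each alternative run, with p-values that could not pass 0.05 in this design. The 30 to 188 counts of Tnni1 and 34 to 175 of Tnnt2 per WT library limit the precision of their fold changes. The cause of the lost calls was not tested.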
